A study of Saccharomyces cerevisiae with 4 samples.

Results

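The 354 loci described here are places in the Saccharomyces cerevisiae genome where a peak of the transcription factor Pho4 met peaks of the transcription factor Cbf1 in every library of the series. A locus is a peak of Pho4 replicate 2 that overlapped a peak in each of the other 3 lists by at least 1 bp. It had to lie on chromosomes I to VI or IX, or on chromosome VII up to position 856779, which is the stretch that all 4 deposited lists reach. The 354 loci are 37.6% of the 941 Pho4 replicate 2 peaks there (95% Wilson interval 34.6% to 40.8%). All 4 lists together hold 3819 peaks in that stretch and 6744 peaks in all. The loci were chosen by the presence of a called peak in all 4 lists, so that presence is a description and was not tested.

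Both factors belong to the basic helix-loop-helix family, whose members bind DNA as dimers, and both recognise the same palindromic E-box core, CACGTG. Pho4 enters the nucleus when phosphate is scarce and switches on genes of phosphate uptake and storage. Cbf1 acts with partner proteins at genes of sulfur amino acid synthesis and is also part of the centromere-binding complexes. In vitro and in vivo work in yeast has connected the base directly 5′ of the core with the choice between the factors, and a T there is known to disfavour Pho4.

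The Pho4 libraries came from the W303 strain Z1441, in which the chromosomal gene carries a Myc tag (PHO4::9myc::TRP1). The Cbf1 libraries came from the W303 strain Z1497 (CBF1::9myc::TRP1). The labels give 2 libraries of each factor and the same anti-Myc antibody, ab9E10, for all 4. They also attach to all 4 the same treatment, growth in rich medium followed by 2 h in glucose medium free of phosphate, and formaldehyde crosslinking. Binding was read by ChIP-nexus, in which an exonuclease trims precipitated DNA up to the crosslinked protein. No untagged or input sample was used here, so binding of a factor and signal that any tagged strain would give at a locus cannot be told apart. Nothing in the labels says whether the replicates were separate cultures, so the spread between replicates may be technical.

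The measure of binding is the authors' fold, the height of a peak's summit over its local background, and it is used throughout to describe and rank peaks. The lists hold no read totals, so depth is described by the summit height in reads that fold and p together imply. At the loci the median summit height was 112 and 58 reads in Pho4 replicates 1 and 2, and 85.5 and 79 reads in Cbf1 replicates 1 and 2. The lowest heights were 10 and 5 reads for Pho4, against 8 and 11 reads for Cbf1. With 2 libraries a factor, an exact permutation test over the 6 assignments of the libraries cannot give a two-sided p below 0.333.

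The loci were spread over all 8 chromosomes of the stretch, with 106 on chromosome IV and 15 on chromosome I. Their density ran between 5.68 loci per 100 kb on chromosome IX and 8.84 on chromosome V. At the edge of the rule, the smallest overlaps were 6 bp, at chromosome IV 508264 to 508414 and chromosome V 544267 to 544560, where the Pho4 replicate 2 fold was 2.31 and 3.15. The nearest Pho4 replicate 2 peak outside the rule, at chromosome VII 706810 to 706960, missed a Pho4 replicate 1 peak by 43 bp and had a fold of 2.81. Of the 587 Pho4 replicate 2 peaks that are not loci, 315 lacked a peak in both Cbf1 lists and 96 lacked a peak in all 3 other lists. Some loci are not separate observations: 71 share a Cbf1 peak with a neighbouring locus, 24 of the loci share a Pho4 peak, and 283 share none. The loci hold 341 and 354 different Pho4 peaks and 316 and 328 different Cbf1 peaks.

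The sequences below are the 30 bases around single E-boxes at named loci, read from the S288C reference (R64), from which W303 may differ. Each is written 5′ to 3′, with the core and 1 flanking base on each side in capitals. At KCS1, PHO87, PHM6, HXK1, NCB2 and DAM1 the printed core was not within 50 bp of all 4 summits. Those loci are therefore not in the flank classes compared below. The first set shows cores with no T immediately before the core when read 5′ to 3′ on each strand (no T flank), at loci where Pho4 had the higher fold.
VTC2, chrVI:131487-131516, plus strand: gaaaaaaaaacCCACGTGCtgcttggaaat
VTC1, chrV:302637-302666, minus strand: ttctctccgagACACGTGCtaatatctatt
PHM6, chrIV:1022583-1022612, minus strand: gagcttcgctgACACGTGGgaggtgggata
KCS1, chrIV:481845-481874, minus strand: aagcccaataaACACGTGGcgcatagaaat
PHO87, chrIII:197300-197329, plus strand: gattacttttcCCACGTGCgaaatcatcaa
HXK1, chrVI:255493-255522, plus strand: acaaacggggcACACGTGCgggagtttcaa
SPC25, chrV:192016-192045, plus strand: ctggacggtaaGCACGTGCtcaagtgttgc
QRI7, chrIV:273947-273976, plus strand: ttgtgacttgaGCACGTGCttcagtttatt
LYS1, chrIX:420670-420699, plus strand: gtgttaaggcaGCACGTGCctctaggggtt
The next set shows cores with a T on 1 strand, at loci where both factors had high folds or Cbf1 had the higher mean log2 fold. At MET32, 1 of the latter, the folds of the factors overlapped.
ERG25 and SPR3, chrVII:609910-609939, plus strand: acccggtgtagTCACGTGCgggtgcggagg
RVB1 and HST4, chrIV:842160-842189, minus strand: tgattttttgcTCACGTGCtctgcgggtaa
IPT1, chrIV:591789-591818, minus strand: gtggattacgcTCACGTGCtttccgcggaa
RAD16 and CYC8, chrII:466569-466598, plus strand: tcagtgacctcTCACGTGCcctgtatcagc
MET32, chrIV:964926-964955, plus strand: atcacaaaatgTCACGTGCatgttagtcca
NCB2, chrIV:1266588-1266617, plus strand: tagcgctttgaTCACGTGCtcgggcgctat
The last set shows cores with a T on both strands, at loci where Cbf1 had the higher fold.
RPN4, chrIV:417078-417107, plus strand: agtaatagcgaTCACGTGAttatccgtgga
CYS3, chrI:130571-130600, plus strand: taattagccatTCACGTGAtctcagccagt
DAM1, chrVII:719592-719621, plus strand: tcatctcaaggTCACGTGActaaaaccacg

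Both factors had higher folds and wider peaks at the loci than at their other peaks in the same stretch. The median fold at the loci was 4.85 and 4.75 in the Pho4 libraries, against 3.24 and 4.25 in the Cbf1 libraries. At the other peaks it was 2.73 and 3.11 for Pho4, against 2.03 and 2.37 for Cbf1. Median width at the loci was 436.5 and 350.5 bp for Pho4, against 684 and 534.5 bp for Cbf1, while the other peaks had medians between 240 and 246 bp in all 4 lists. Width enters an overlap rule directly, so the contrast with other peaks is a description of what the rule picked. The folds spanned 1.82 to 42.7 and 1.94 to 39.8 for Pho4, and 1.46 to 18.0 and 1.58 to 28.6 for Cbf1.

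Over all loci, a high Pho4 fold went only weakly with a high Cbf1 fold. Over the 354 loci, Pearson's r of log2 fold was 0.94 for the pair of Pho4 lists and 0.87 for the pair of Cbf1 lists, and lay between 0.16 and 0.26 for the 4 pairs of a Pho4 with a Cbf1 library. The loci within a pair share a library and its depth, so these values are descriptions across loci. The median absolute difference in log2 fold at a locus was 0.20 within Pho4, 0.63 within Cbf1 and 0.76 to 0.84 between the factors. Where the same E-box lay near all 4 summits, which was so at 77 loci, r was 0.98 and 0.96 within the factors and between -0.15 and -0.07 across them. These 77 loci pool the flank classes described below, whose median folds ran opposite ways in the factors. Whether the folds of the factors rise together within a flank class was not tested.

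**Figure D1:**
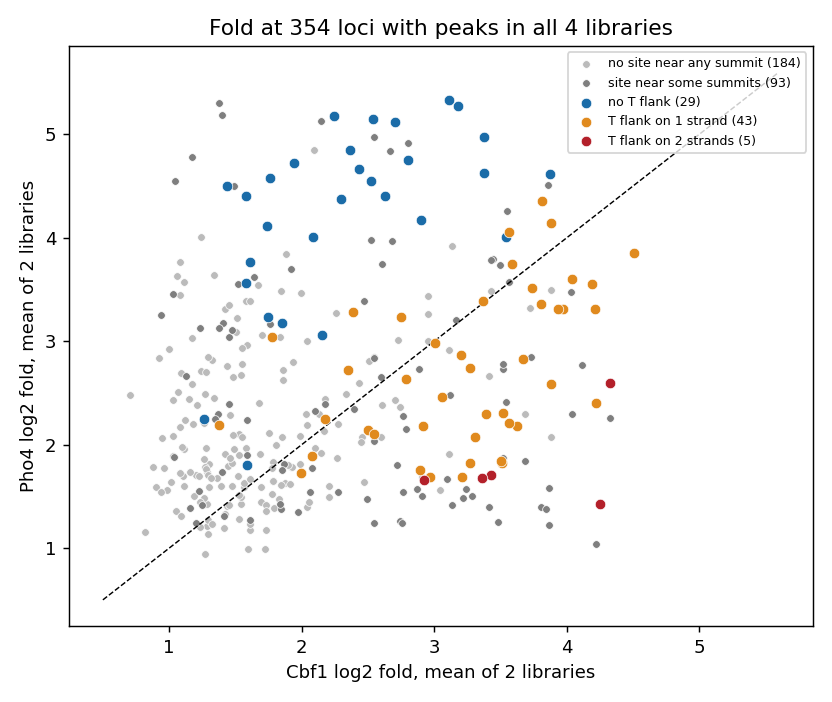
Mean log2 of the authors' fold over the Pho4 libraries (vertical axis) against that over the Cbf1 libraries (horizontal axis) at each of the 354 loci, with points coloured by E-box class and the dashed line at equal folds. Loci whose E-box has no T flank lie on the side of higher Pho4 fold, loci with a T flank on 2 strands lie on the other side, and the grey loci without a nearby E-box crowd the low folds of both.

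Both Pho4 folds stood above both Cbf1 folds at 161 of the 354 loci (45.5%) and below them at 81 loci (22.9%). These shares are the background for the counts of single groups of loci below. They depend on the scale: the median fold of all peaks in the stretch was 3.09 and 3.43 in Pho4, against 2.18 and 2.80 in Cbf1. With fold divided by its list's median, Pho4 was above at 117 loci (33.1%) and below at 145 loci (41%), and with the fold percentile within a list at 119 loci (33.6%) and 148 loci (41.8%). Leaving out a library changes both the loci and the number of lists that must be ordered. Without Cbf1 replicate 2, Pho4 was above at 289 of 433 loci. Without Pho4 replicate 2 it was below at 144 of 435 loci, and without Cbf1 replicate 1 at 148 of 404 loci.

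The order of the factors in typical fold at the loci changed with the scale. Median log2 fold was 2.28 and 2.25 in the Pho4 libraries (2.26 ± 0.02, SD, n = 2), against 1.69 and 2.09 in the Cbf1 libraries (1.89 ± 0.28, SD, n = 2). The difference of 0.37 had an exact permutation p of 0.333, the smallest that 2 against 2 libraries allows. It became -0.02 after division by the list median (exact permutation p = 1) and -3.66 points on the percentile scale (exact permutation p = 0.667). It was 0.16 without Pho4 replicate 2 and 0.65 without Cbf1 replicate 2. The flank difference in median log2 fold below is taken within each library, so dividing by the list median leaves it unchanged. It was not taken on the percentile scale. The flank counts of loci with Pho4 above or below compare the authors' fold across libraries, so they do depend on the scale.

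The base next to the E-box went with which factor had the higher fold. At 77 loci an E-box lay within 50 bp of all 4 summits, and the one closest to the summits was used at the 4 loci that had more than 1. By that E-box, 29 had no T directly 5′ of the core, 43 had a T on 1 strand and 5 had a T on both strands. At 3 of the 4 loci with more than 1, GLK1 and LSM4 among them, 1 E-box had a T flank and the other had none, so their class is ambiguous. Median fold in these 3 classes was 21.6, 5.42 and 3.52 in Pho4 replicate 1 and 23.1, 6.70 and 2.90 in Pho4 replicate 2. It ran the other way in Cbf1, with 3.58, 7.05 and 6.96 in replicate 1 and 6.46, 14.3 and 16.7 in replicate 2. The Pho4 medians were lower at each step, and the Cbf1 medians differed mainly between the loci with no T and the rest. Both Pho4 folds were above both Cbf1 folds at 27 of the 29 loci with no T and below at none. They were above at 3 and below at 18 of the 43 loci with 1 T, and below at all 5 loci with T on both strands.

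**Figure D2:**
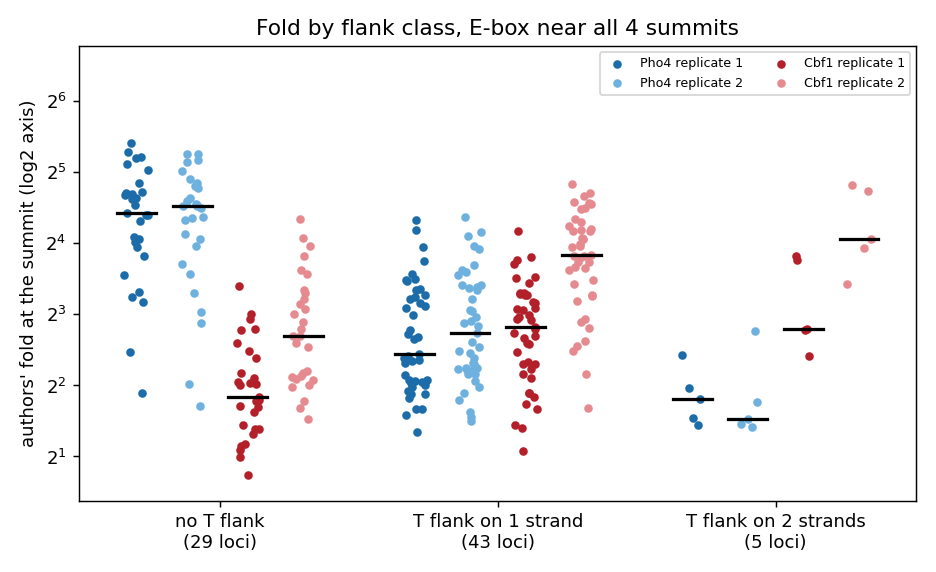
Authors' fold (log2 axis) in each library at the 77 loci with an E-box near all 4 summits, by the number of strands with a T directly 5′ of the core, with 29, 43 and 5 loci from left to right. Each point is a locus and each bar is a median. Pho4 medians are 21.6 and 23.1 with no T and 3.52 and 2.90 with T on 2 strands, while Cbf1 medians are 3.58 and 6.46 with no T and 6.96 and 16.7 with T on 2 strands.

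On the log2 scale, the median of the 48 T-flanked loci minus that of the 29 unflanked loci was -2.03 and -1.95 in the Pho4 libraries (-1.99 ± 0.06, SD, n = 2). It was 0.97 and 1.25 in the Cbf1 libraries (1.11 ± 0.20, SD, n = 2). These flank differences differed between the factors by -3.10, with an exact permutation p of 0.333, the smallest that 2 against 2 libraries allows. Both Pho4 libraries were negative and both Cbf1 libraries positive, and dividing by the list median leaves this difference as it is. Over the 45 T-flanked and 28 unflanked loci with exactly 1 E-box near all 4 summits it was -3.14. It lay between -3.16 and -2.95 when each library was left out in turn. Loci can enter only with a peak in all 4 lists, so sites bound by 1 factor alone are not in this comparison.

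The factors' folds overlapped at 22 of the 48 T-flanked loci and at 2 of the 29 unflanked loci. The unflanked pair were a cCACGTGc locus at chromosome IV 562503 to 563193, with folds of 15.5 and 16.7 in Pho4, against 8.07 and 16.9 in Cbf1, and a locus inside HEM1, with 3.71 and 3.28 in Pho4, against 2.61 and 3.45 in Cbf1. The cCACGTGc locus also has a T-flanked E-box near all 4 summits. HEM1 encodes the first enzyme of haem synthesis. The 3 T-flanked loci with the higher Pho4 fold lay in the promoter of BOI1, a polarity gene, and in the bodies of HO, the mating-type switching endonuclease, and YGR127W. At HO the folds were 8.99 and 7.51 in Pho4, against 2.64 and 4.46 in Cbf1. These 5 loci were named after their values were seen.

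The E-box flanked by G on both strands, gCACGTGc, stood near the summits of both factors more often than any of the other 9 flank combinations. Of its 14 occurrences in the compared stretch, 11 had all 4 summits of a locus within 50 bp (78.6%, 95% Wilson interval 52.4% to 92.4%). All 14 were near both Pho4 summits of a peak pair, and 11 were near both Cbf1 summits. With 1 site counted per locus, the next share was that of tCACGTGc, at 36.4% of 77 sites, and the lowest was that of cCACGTGg, at 3.70% of 27 sites. Over all flanks 77 of 399 sites were counted in this way (19.3%), and 81 different sites lay near all 4 summits of a locus. At the 11 gCACGTGc loci the median fold was 21.6 and 22.6 in Pho4, against 3.58 and 7.41 in Cbf1, and Pho4 was above at all 11. This grouping by G was chosen after the values were seen, and since being a locus is what chose the members, the shares are a description.

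The gCACGTGc loci differed widely in Cbf1. The locus at chromosome V 191837 to 192508 overlaps SPC25, a kinetochore gene, and had folds of 25.9 and 23.1 in Pho4, against 10.6 and 20.3 in Cbf1. A second E-box there, with a T on 1 strand, lies within 50 bp of both Cbf1 summits and of neither Pho4 summit. The locus inside QRI7 (chromosome IV 273740 to 274188) had 34.8 and 36.1 in Pho4, against 4.00 and 8.44 in Cbf1. QRI7 encodes a mitochondrial tRNA-modifying protein. At the locus inside STP1 (chromosome IV 1387257 to 1387679), a gene for an amino acid-responsive transcription factor, folds were 20.0 and 22.6 in Pho4, against 2.27 and 3.93 in Cbf1. The locus inside LYS1, the last enzyme of lysine synthesis, had 21.2 and 20.5 in Pho4, against 3.45 and 6.96 in Cbf1.

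The 6 loci highest for both factors were ranked by the mean percentile of fold over the 4 lists. The SPC25 locus was first. The second, inside SCS3 (chromosome VII 271394 to 272233), had folds of 24.7 and 21.1 in Pho4, against 10.5 and 20.0 in Cbf1. There the E-boxes near the Pho4 summits and near the Cbf1 summits differed, and the mean summits were 249 bp apart. SCS3 encodes a protein of lipid droplet formation.
SCS3 site near the Pho4 summits, chrVII:271687-271716, minus strand: ggtggccaagaACACGTGCccggatggatc
SCS3 site near both Cbf1 summits, chrVII:271905-271934, plus strand: cgagccgcctgTCACGTGCgcggccgccct
The Pho4 site has no T flank and the printed Cbf1 site has a T on 1 strand. Another E-box, also with a T on 1 strand, was nearer to the Cbf1 replicate 1 summit than the printed one. It was farther than the printed one from the Cbf1 replicate 2 summit.

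The other 4 of the highest loci had all summits at 1 E-box. The locus upstream of ERG25, a sterol C-4 demethylation enzyme, had folds of 13.5 and 15.6 in Pho4, against 18.0 and 28.6 in Cbf1. Between RVB1, a chromatin remodelling helicase, and HST4, a histone deacetylase, folds were 20.1 and 20.7 in Pho4, against 9.76 and 20.2 in Cbf1. At IPT1, which makes the last step of sphingolipid synthesis, they were 18.3 and 17.1 in Pho4, against 11.4 and 19.0 in Cbf1. Each of these 3 cores reads tCACGTGc, the octamer printed above for them. The locus over MHR1 and upstream of SUR2, a sphingolipid hydroxylase, had an unflanked core, with 32.7 and 30.1 in Pho4, against 6.91 and 15.6 in Cbf1.

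At the loci most tilted to Pho4, both Pho4 folds exceeded 20 and no Cbf1 fold exceeded 5. The largest difference was inside KCS1, the inositol hexakisphosphate kinase gene, where the folds were 39.0 and 39.8 in Pho4, against 2.00 and 3.37 in Cbf1. The summits there stood 3574 and 2307 reads high in Pho4, against 52 and 57 reads in Cbf1. The E-box was within 50 bp of both Pho4 summits and of neither Cbf1 summit. In the promoter of PHO87, a low-affinity phosphate transporter, folds were 36.5 and 36.2 in Pho4, against 2.30 and 3.01 in Cbf1. In that of HXK1, a hexokinase, they were 22.7 and 24.1 in Pho4, against 1.83 and 2.31 in Cbf1. The loci at RSM10, at YER076C and at MIG1 completed the 6, with mean log2 differences of 3.61, 3.06 and 3.01. RSM10 encodes a mitochondrial ribosomal protein and MIG1 a glucose repressor. The sites of all 6 had no T flank, and at only 1 of the 6, YER076C, was the E-box near all 4 summits.

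At the loci most tilted to Cbf1, Pho4 peaks were low and Cbf1 peaks wide. In the promoter of RPN4, the activator of proteasome genes, folds were 2.72 and 2.67 in Pho4, against 13.7 and 26.6 in Cbf1. The Pho4 peaks were 223 and 197 bp wide and the Cbf1 peaks 1625 and 873 bp, with all 4 summits within 50 bp of the T-flanked core printed above. At DAM1, a kinetochore gene, folds were 2.35 and 2.88 in Pho4, against 9.49 and 21.7 in Cbf1. The core printed above for DAM1 was within 50 bp of both Cbf1 summits and of neither Pho4 summit. The remaining 4 of this group, at NCB2 (a transcription repressor subunit), at PDR15 (2 loci, a drug transporter) and at RIP1 (a respiratory chain subunit), each share a Cbf1 peak with another locus. At NCB2, with a mean log2 difference of -3.18, the mean summits were 449 bp apart, and at RIP1 they were 520.5 bp apart. The neighbouring loci on the same Cbf1 peaks had the higher Pho4 folds, 5.09 and 5.50 beside NCB2 and 8.70 and 12.1 beside RIP1, with Pho4 summits within 50 bp of the Cbf1 summits. The PDR15 loci had mean summit gaps of 603.5 and 106 bp. So the strong tilt at NCB2 and RIP1 sets a side Pho4 peak against a Cbf1 peak centred elsewhere.

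Other loci were high and nearly equal in both factors. The locus upstream of RAD16 and CYC8 had folds of 10.2 and 10.7 in Pho4, against 7.95 and 13.4 in Cbf1, and a mean log2 difference of 0.02. The mean summits were 1.5 bp apart. RAD16 acts in nucleotide excision repair, and CYC8 is a corepressor subunit. At the locus upstream of GPD1, the glycerol-3-phosphate dehydrogenase of osmotic stress, folds were 12.2 and 11.6 in Pho4, against 7.82 and 17.9 in Cbf1. The loci at XRS2, a double-strand break repair gene, and at SER33, an enzyme of serine synthesis, had mean log2 differences of -0.03 and 0.04. All 4 sites had a T on 1 strand.

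Of 10 listed phosphate genes in the compared stretch, 5 had all 4 summits of a locus within 500 bp upstream of the start codon. Of 9 listed sulfur genes 4 had, and of all 2509 protein-coding genes there, 159 had (6.34%). The listed glycolysis genes gave 2 of 8 and the listed bHLH factor genes 0 of 3. PHO5, PHO8, PHO11, PHO89 and GIT1 were the listed phosphate genes with no locus within that 500 bp. For GIT1 and PHO8 this rests on the cut-off, since a locus with an unflanked E-box lay a little further upstream. Near GIT1 its folds were 39.1 and 38.3 in Pho4, against 6.88 and 11.9 in Cbf1. Near PHO8 the folds were 37.1 and 32.5 in Pho4, against 4.15 and 10.2 in Cbf1. Both loci were named after their values were seen.

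At 4 of the 5 phosphate genes Pho4 was far above Cbf1. VTC2 and VTC1 encode parts of the vacuolar complex that makes polyphosphate. At VTC2 the folds were 36.8 and 35.5 in Pho4, against 3.48 and 6.46 in Cbf1, and at VTC1 they were 24.7 and 23.1 in Pho4, against 2.71 and 4.23 in Cbf1. At PHM6, a phosphate-regulated gene, they were 35.7 and 34.4 in Pho4, against 3.33 and 5.89 in Cbf1. The cores at these 3 genes, printed above, have no T flank. PHM8, a nucleotide phosphatase, had 32.2 and 25.7 in Pho4, against 3.42 and 5.31 in Cbf1 with no CACGTG near any summit. A CACGTT lies there within 50 bp of both Pho4 summits, and is shown with that core in capitals.
PHM8, chrV:225602-225631, minus strand: ttgtatgtgaagCACGTTgctgcccccttt
GPP2, a glycerol phosphatase, has a T-flanked core and smaller folds, at 10.8 and 10.2 in Pho4, against 4.25 and 7.23 in Cbf1.

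At 2 of the 4 sulfur genes, CYS3 and MET28, both Pho4 folds were below both Cbf1 folds. At MET32 and at the MET10 locus with the higher Pho4 folds the factors overlapped. At the sulfur genes every E-box near the summits had a T flank. CYS3, which makes cysteine by the last step of transsulfuration, had folds of 3.90 and 2.74 in Pho4, against 6.96 and 16.7 in Cbf1. At MET28, a cofactor that works with Cbf1, they were 3.64 and 3.52 in Pho4, against 8.69 and 19.0 in Cbf1. At MET32, a zinc finger activator of the sulfur genes, they were 4.42 and 4.66 in Pho4, against 4.49 and 12.7 in Cbf1. MET10, a sulfite reductase subunit, had 2 loci that share 1 Cbf1 peak in each list, with 6.61 and 5.84 in Pho4, against 5.01 and 9.56 in Cbf1 at the locus with the higher Pho4 folds and 4.15 and 4.78 in Pho4 at the other. The glycolysis gene GLK1, a glucokinase, had 15.5 and 17.9 in Pho4, against 8.32 and 16.7 in Cbf1. At the listed glycolysis genes PGI1 and TPI1, some but not all summits of a locus lay in the promoter. Folds were 12.6 and 12.2 in Pho4, against 1.95 and 2.22 in Cbf1 at PGI1. At TPI1 they were 6.10 and 8.13 in Pho4, against 2.71 and 2.31 in Cbf1. Neither of these loci had an E-box near any summit.

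Summits of the 2 factors lay less close together than summits of replicates. The median distance between summits at a locus was 30 bp within Pho4 and 34 bp within Cbf1. It was 46.5 to 70.5 bp for the 4 pairs across factors. The mean across factors exceeded the mean within a factor by 26.9 bp, with an exact permutation p of 0.333, the smallest that the 3 ways of pairing 4 libraries allow. Without Cbf1 replicate 2 the excess was 42.5 bp. Summits lay within 50 bp of each other at 68.9% of loci within Pho4 and 59.0% within Cbf1, against 42.4% to 51.1% across the factors. At the 77 loci with a shared E-box the medians were 14 bp and 13 bp within Pho4 and Cbf1, and 18 to 22 bp across the factors. At the 184 loci with no E-box near any summit they were 38 bp and 60 bp within Pho4 and Cbf1, and 77.5 to 102 bp across. The shared E-box had to lie within 50 bp of all 4 summits, which by itself keeps those summits close. The contrast between these classes is therefore a description of how they were chosen.

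**Figure D3:**
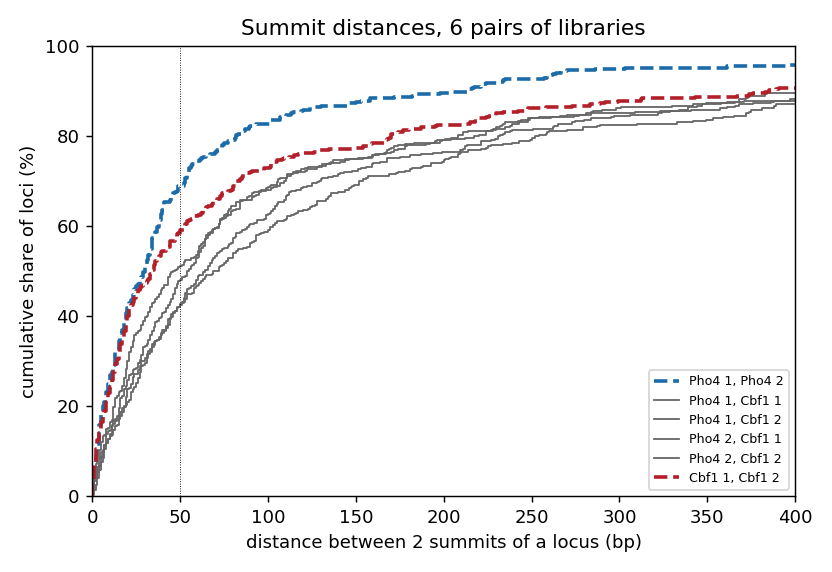
Cumulative share of the 354 loci (%) against the distance in bp between the summits of a pair of libraries, for the 2 pairs within a factor and the 4 pairs across factors, with a dotted line at 50 bp. The within-factor curves, with medians of 30 and 34 bp, lie above the curves across factors, with medians of 46.5 to 70.5 bp.

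Among loci with closely placed replicate summits, wide gaps between the factors were fewer than narrow ones. At 162 loci the replicate summits lay within 50 bp of each other for both factors, and there the median distance between the mean Pho4 and the mean Cbf1 summit was 25 bp. Of these, 108 loci had the factors within 50 bp and 26 had them more than 100 bp apart. Without the loci that share a peak, the counts were 96 and 21 of 142 loci, and the largest gap was 462 bp, at YAT1, a carnitine acetyltransferase gene. Folds at YAT1 were 6.52 and 6.07 in Pho4, against 4.10 and 8.96 in Cbf1, with an E-box near both Cbf1 summits and none near the Pho4 summits. The wider gaps were at loci that share a Cbf1 peak with a neighbour whose Pho4 summits lay at the Cbf1 summits. Between SWI4, a cell-cycle transcription factor gene, and LSM4, an mRNA decay gene, the gap was 681 bp, with Pho4 folds of 4.85 and 4.71. At the neighbouring locus Pho4 had 5.39 and 6.80 with a gap of 8.5 bp. At PUS2, a pseudouridine synthase gene, the gap was 624 bp with Pho4 folds of 4.97 and 4.88, and the neighbouring locus had 11.3 and 13.0 with a gap of 0.5 bp.

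Summits of both factors stood close to the E-box at loci chosen for an E-box near their mean summit. This closeness is partly set by that choice. At 125 loci with a single CACGTG within 100 bp of the mean summit, the median distance from summit to site was 21.5 and 14.5 bp in the Pho4 libraries (18 ± 4.95, SD, n = 2). It was 26.5 and 23.5 bp in the Cbf1 libraries (25 ± 2.12, SD, n = 2). The difference of -7 bp had an exact permutation p of 0.333, the smallest possible here. Every alternative that gave a value kept its sign.

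Pho4 peaks had the smaller median width at the loci, and the gap to Cbf1 was widest at T-flanked E-boxes. Median width was 436.5 and 350.5 bp for Pho4 (393.5 ± 60.8, SD, n = 2), against 684 and 534.5 bp for Cbf1 (609.25 ± 106, SD, n = 2), a difference of -215.75 bp with an exact permutation p of 0.333, the smallest possible here. The difference was -73 bp without Cbf1 replicate 1 and 6.5 bp when an overlap had to cover 50% of both peaks. It was -96.5 bp over the 283 loci that share no peak. At the 29 unflanked loci the median widths were 526 and 475 bp for Pho4, against 523 and 498 bp for Cbf1. At the 43 loci with T on 1 strand they were 363 and 301 bp for Pho4, against 1215 and 908 bp for Cbf1. Fold differed between these classes in the same direction as width in both factors, and its part in the widths was not tested.

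**Figure D4:**
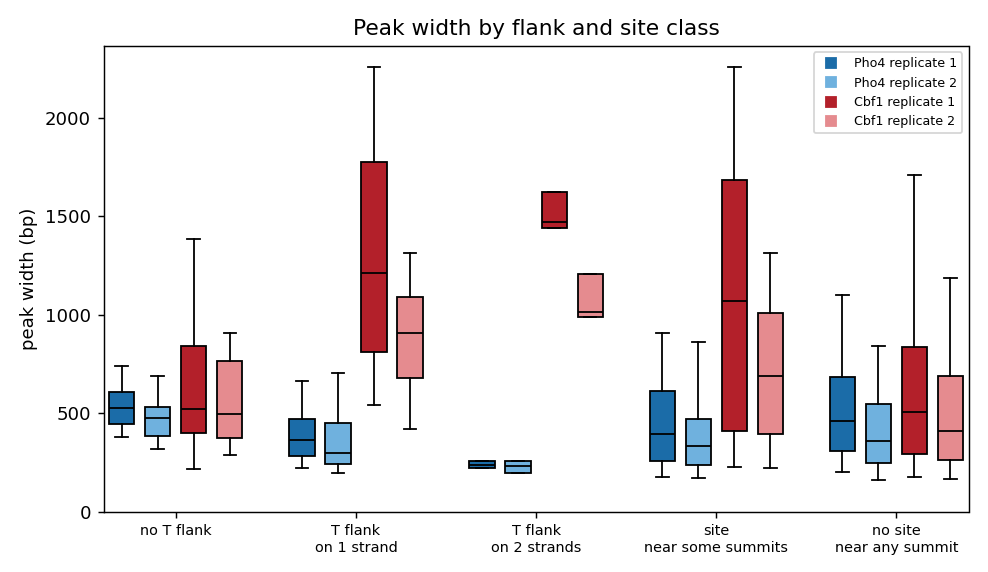
Peak width in bp of each library by E-box class, with boxes from the lower to the upper quartile, the median as a line, whiskers to the outermost loci inside percentiles 5 and 95, and no points beyond them. Where the E-box has no T flank the medians are 526 and 475 bp for Pho4, against 523 and 498 bp for Cbf1, and Cbf1 peaks are wider at T-flanked E-boxes (1215 and 908 bp with T on 1 strand).

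More than 1 in 3 summits at the loci had an E-box within 50 bp, in all 4 libraries. The shares were 37.2% and 38.1% for Pho4, against 36.4% and 37.8% for Cbf1, counted over different peaks. At the other peaks they were 12.4% and 12.9% for Pho4, against 5.30% and 11.2% for Cbf1, and of all positions in the stretch 0.776% have a core that near. The mean difference between loci and other peaks was 26.9 ± 2.89 percentage points (SD, n = 4 libraries). It was positive in 4 of 4 libraries, with an exact sign-flip permutation p of 0.13, the smallest that 4 libraries allow. The 4 libraries hold the same loci, so they are not independent for this test.

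**Figure D5:**
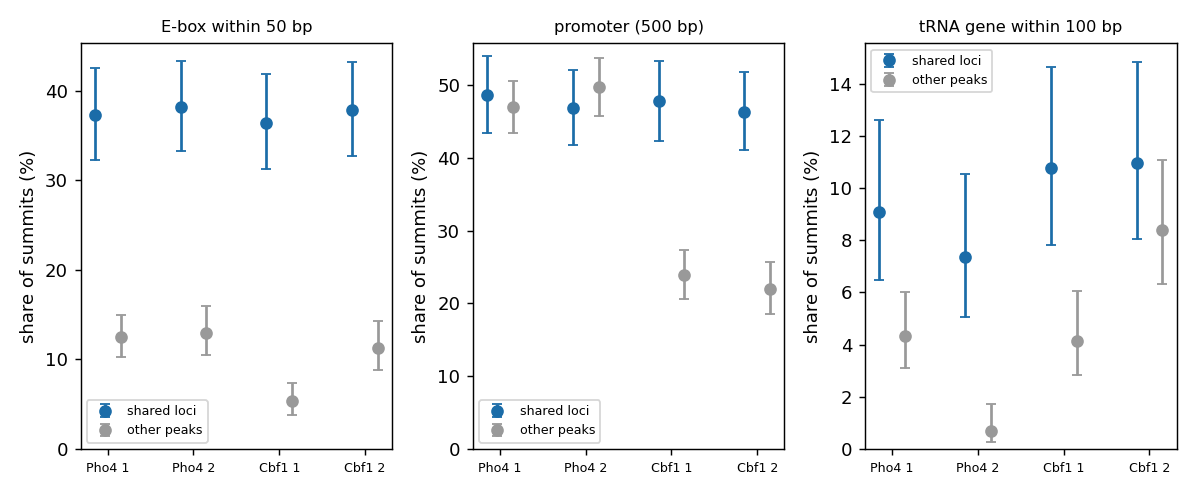
Share of summits (%) with a CACGTG within 50 bp, in a promoter, or within 100 bp of a tRNA gene, at the loci and at the other peaks of each library, with 95% Wilson intervals that cover counting error only. The loci stand above the other peaks for CACGTG in all 4 libraries (26.9 percentage points on average), and for promoters by over 20 percentage points in the Cbf1 libraries.

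Promoter shares at the loci were alike in the 4 libraries, at 48.7% and 46.9% for Pho4, against 47.8% and 46.3% for Cbf1. The other Pho4 peaks had 47.0% and 49.7%, while the other Cbf1 peaks had 23.8% and 21.9%. The difference between loci and other peaks averaged 11.8 ± 14.4 percentage points (SD, n = 4 libraries; exact sign-flip permutation p = 0.375) and changed to -4.10 when overlaps had to cover 50% of both peaks. It was 4.53 without Cbf1 replicate 1. By Pho4 replicate 2 summits, 166 loci were in promoters and 118 in gene bodies. All 4 summits fell in the promoter of 1 gene at 125 loci, and 33 loci lay in the shared promoter of a divergent pair.

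tRNA genes, which are transcribed by RNA polymerase III, lay within 100 bp of a summit at 44 loci and of all 4 summits at 22 loci. The share of summits near a tRNA gene was 9.09% and 7.34% for Pho4, against 10.8% and 11.0% for Cbf1 at the loci. At the other peaks it was 4.32% and 0.681% for Pho4, against 4.14% and 8.38% for Cbf1. The mean difference of 5.16 ± 1.93 percentage points (SD, n = 4 libraries) had an exact sign-flip permutation p of 0.13. It turned to -2.10 in the upper 50% of each list and was 10.7 without Pho4 replicate 2. Median fold at the 22 loci was 4.20 and 3.36 in Pho4, against 2.90 and 3.88 in Cbf1. Pho4 was above at 7 of the 22 (31.8%) and below at none, against 45.5% and 22.9% of all 354 loci. Of the 44 loci, 42 had no E-box near any summit. No untagged strain was used here, so the part of tag-independent signal at tRNA genes was not tested.

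At 184 of the 354 loci (52.0%) there was no CACGTG within 50 bp of any summit. Median fold at these was 4.06 and 3.88 in Pho4, against 2.69 and 3.26 in Cbf1, below the medians of the 77 loci with a shared E-box (9.28 and 9.84 in Pho4, 5.61 and 12.4 in Cbf1). Pho4 was above at 96 of them (52.2%) and below at 28 (15.2%), against 45.5% and 22.9% of all 354 loci on the same scale. The single-base variant CACGTT was within 50 bp of 16.3% and 17.9% of Pho4 summits at these loci and of 8.70% and 10.9% of Cbf1 summits, against 3.21% of all positions in the stretch, both strands counted. Some other variants also exceeded their share of positions. CGCGTG was near 5.43% and 4.35% of Pho4 summits and 3.26% of the summits of each Cbf1 list, against 0.634% of positions. Not all did, and CACGTC was near 0.543% of Cbf1 replicate 1 summits, against 1.83% of positions. For CACGTT, the Pho4 shares were the highest of the variants counted. At 21 of the 184 loci CACGTT lay near both Pho4 summits, with median folds of 10.0 and 9.19 in Pho4, against 2.44 and 3.45 in Cbf1. Pho4 was above at 18 of these (85.7%) and below at none. This group was chosen by Pho4 summits alone, and loci with CACGTT near both Cbf1 summits were not compared, so the counts are a description.

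A few loci without an E-box were high in both factors at repeated or end sequences. The locus inside FLO1, a cell wall flocculin gene with internal repeats, had folds of 11.6 and 10.9 in Pho4, against 15.4 and 14.1 in Cbf1, with all 4 summits within 12 bp. Its summit heights were 54 and 29 reads in Pho4, against 99 and 61 reads in Cbf1. The locus inside YAR064W had 13.3 and 7.55 in Pho4, against 12.7 and 13.8 in Cbf1, and the locus at the left end of chromosome II had 14.1 and 8.95 in Pho4, against 14.3 and 8.17 in Cbf1. In all, 9 loci were at telomeres and 6 at long terminal repeats or Ty elements. The way reads from repeated sequence were placed is not given in the sources used here, so these folds are uncertain. The loci of this paragraph were named after their values were seen.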

How the data were processed

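Each library had 1 deposited narrowPeak list, with the coordinates of peaks and summits. Per the submitters' processing notes, the tools included cutadapt 1.8.1, Bowtie 1.1.2, SAMtools 1.3.1, bedtools and MACS2 2.1.1, with build sacCer3. The authors' fold is a ratio of summit height to local background. The deposited −log10 p served to solve heights, and the authors' −log10 q to rank peaks. The deposited score column was not used for results. No peak ended past an R64 chromosome end and 10 ended exactly at one, so the R64 sequence and annotation of S288C were used. The total reads per library are not given in the sources used here.

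Where several peaks of a list overlapped a locus, the one of largest overlap was matched to it. Summit heights were solved from fold and −log10 p as whole reads under a Poisson model, within 0.001 or the precision of the printed digits. A whole height was found for 98.9% to 100% of peaks at loci. An E-box was near a summit when its centre lay within 50 bp. Promoters were the 500 bp before a coding start. Medians over loci were compared between factors by exact permutation of the 4 libraries, two-sided. Shares used 95% Wilson intervals, which cover counting error only. The loci, gene lists and flank classes were chosen with earlier results of these data known. The text names the 6 loci highest for both factors, the 6 most tilted to each, the 4 most balanced among loci of mean percentile 75 or more, the 4 of widest summit gap and every locus in the promoter of a listed gene, and says where others were added. The procedures were checked on simulated data. Python 3.11.15, NumPy 2.4.6, SciPy 1.17.1 and Matplotlib 3.10.9 were used. Alternatives were stricter overlap rules, shorter lists, other starting lists, other scales and windows, the replicate block and each library left out.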

Additional observations from a re-analysis of the deposited data

Results flagged for a closer look

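The median log2 fold of loci with a T directly 5′ of the E-box minus that of loci without it had opposite signs in the factors. It was -2.03 and -1.95 in the Pho4 libraries, against 0.97 and 1.25 in the Cbf1 libraries, a difference of -3.10. Every Pho4 library lay on one side of zero and every Cbf1 library on the other, and the exact permutation test cannot go below 0.333 with 2 libraries a factor. These are different loci, and whether the base itself causes the difference was not tested.

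Mitochondrial DNA, which was outside the compared stretch, held 2 places with peaks in all 4 libraries, among 20 mitochondrial peaks of Pho4 replicate 2. The mitochondrial lists had 21 and 20 peaks for Pho4 and 13 and 9 peaks for Cbf1. No control library was used here, so their level over a control was not tested.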

How the results depend on the processing

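Of 173 alternative values over 11 results, 153 did not change sign, or for counts stayed within 1.5 times, 15 counts moved further and 5 values changed sign. Some of the 153 could not have changed sign. The values with replicate number as a block repeat the main ones, and the tRNA difference without noncoding RNA genes was 0 by construction. No test among these results could pass a threshold of 0.05, so only direction and size are compared. With summits within 50 bp there were 104 loci, 45 with Pho4 above and 25 below. With 50% overlap of both peaks there were 118, 74 and 12, the width difference was 6.5 bp and the promoter difference -4.10 percentage points. In the upper 50% of each list there were 160, 79 and 31, and the tRNA difference was -2.10. On the list-median scale the log2 fold difference was -0.024 and Pho4 was below at 145 loci. On the percentile scale these were -3.66 points and 148 loci. Over loci that share no peak, an alternative chosen after seeing the data, Pho4 was below at 52. Over loci with exactly 1 E-box near all summits, also chosen after seeing the data, the T-flank difference was -3.14. Leaving out each library in turn gave 378 to 435 loci, 179 to 289 with Pho4 above and 100 to 148 below. It gave log2 fold differences of 0.16 to 0.65, summit distance differences of 22.75 to 42.5 bp, width differences of -257.25 to -73 bp and T-flank differences of -3.16 to -2.95. Site distance differences were -10.5 to -5.5 bp, and share differences 20.0 to 29.0 for CACGTG, 4.53 to 14.1 for promoters and 3.85 to 10.7 for tRNA genes. The lowest median summit height at the loci, 58 reads, was in Pho4 replicate 2, whose peaks define the loci.

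With replicate number as a block, the differences between factors stayed at 0.37 for log2 fold, -215.75 bp for width, -3.10 for the T flank and -7 bp for site distance, each with an exact permutation p of 0.5. Deviations of equal replicate number correlated at 0.11 over the 354 loci, and the number alone does not pair libraries. No paired analysis was possible for the counts, summit distances and shares because each comes from all libraries at once or is taken within a library.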
